A study of Mus musculus with 5 samples.

Results

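The genes described are 7 genes grouped under the name marrow niche factors of stromal cells, namely Cxcl12, Kitl, Ebf1, Angpt1, Esm1, Vcam1 and Hp. The name is that of the group and does not give each gene a shown part in forming a niche. They were chosen by gene symbol, all 7 were found among the 12621 genes of the deposited table, and all 7 passed the filter on low values that left 12484 genes for testing. RNA came from mesenchymal stem cells of mice, adherent stromal progenitors, in 3 libraries from TSG-6 knockout cells and 2 from wild-type cells. TSG-6 is a secreted hyaluronan-binding protein encoded by Tnfaip6. Knockout and wild-type cells carry the same strain label, Balb/c (C.129S6), and the labels give no age, sex, treatment, tissue of origin, passage or deleted exon. Column names part the libraries into C1, C2 and SE for the knockout and C1 and SE for the wild type, with no meaning given for these suffixes. The design text speaks of 2 biological replicates of each cell type while 3 knockout libraries are labelled, and no label ties a library to an animal or culture. The p-values below therefore rest on spread among libraries that may be technical.

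Blood stem cells in the marrow lie close to perivascular stromal cells that secrete the chemokine CXCL12 and kit ligand, the ligands of CXCR4 and KIT. CXCL12 holds stem and progenitor cells in the marrow and kit ligand keeps stem cells alive, while angiopoietin-1 acts on the receptor TIE2 and VCAM1 binds the integrin made of the alpha-4 and beta-1 chains. EBF1 is a transcription factor known both from B cell commitment and from marrow stroma and fat precursors. Endocan, the product of Esm1, is a secreted dermatan sulphate proteoglycan best known from endothelial cells. Haptoglobin, the product of Hp, binds free haemoglobin in plasma, and is made mainly in liver but also in fat.

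The stretches before the transcription starts of Cxcl12 and Esm1 are shown because both genes were higher in the knockout while these sequences differ in make-up. Each line holds the 250 bases before the start, from RefSeq on GRCm38.p6, plus strand, with every CG dinucleotide in capitals. The Cxcl12 stretch is chr6:117168285-117168534 and the Esm1 stretch is chr13:113209409-113209658.
Cxcl12: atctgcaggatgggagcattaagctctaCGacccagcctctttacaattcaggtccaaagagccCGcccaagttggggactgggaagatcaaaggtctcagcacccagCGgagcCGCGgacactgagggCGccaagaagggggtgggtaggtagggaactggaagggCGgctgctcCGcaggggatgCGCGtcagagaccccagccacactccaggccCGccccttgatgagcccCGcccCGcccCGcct
Esm1: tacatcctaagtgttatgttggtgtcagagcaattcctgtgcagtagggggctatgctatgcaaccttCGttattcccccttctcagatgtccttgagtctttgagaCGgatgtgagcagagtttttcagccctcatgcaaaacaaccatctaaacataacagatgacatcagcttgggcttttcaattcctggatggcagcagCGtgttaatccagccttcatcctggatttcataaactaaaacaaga
The Cxcl12 stretch holds 14 CG dinucleotides and 64.4% G and C, and the Esm1 stretch holds 3 and 44.0%, against medians of 6 and 52.4% over 32851 RefSeq promoters. Windows reaching 50 bases past the start were found by symbol for 4 of the 7 genes (5 windows, 2 of them of Ebf1), and 6 motifs were searched in them on both strands. The motifs for EBF (TCCC and GGGA set 2 bases apart, in 0.904% of all promoters), NF-kB (GGGNNTTCC, 5.82%), STAT (TTCNNNGAA, 8.30%) and C/EBP (TTGCNNAA, 10.8%) had no match in these 5 windows. A TATA motif (TATAAA, 13.6%) lay in the Kitl window, and a HIF motif (ACGTG, 19.6%) in 1 of the 2 Ebf1 windows. The Kitl window reaches past the gene start of GENCODE M21 at 100015630. Both Ebf1 windows begin after the Ebf1 gene start of GENCODE M21 at 44617317, inside the annotated gene. The matches lay in different windows and so shared no bases. A match is a run of letters, not a shown binding site.

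Values are normalised counts, that is reads of a gene divided by a scaled library size (CPM), and means are ± SD with n = 3 knockout and n = 2 wild-type libraries. Reads assigned to genes ran from 13605555 to 26658725 per library. Pearson correlations of log2 values across genes were 0.946 to 0.982 between libraries of the same group and 0.753 to 0.810 between groups, and knockout SE stood apart from knockout C1 and C2 (0.946 and 0.947, against 0.982 between C1 and C2). The targeted gene Tnfaip6 was at 1.65, 2.38 and 1.36 in the knockout (C1, C2, SE) and at 6.04 and 3.21 in the wild type (C1, SE), which was not called different (limma, adjusted p = 0.0578), though it was called lower in 5 of 17 alternatives (adjusted p from 0.00943 to 0.364). The groups also differed in sex-linked genes. Ddx3y, Eif2s3y, Kdm5d and Uty, all on the Y chromosome, had no read in any of the 3 knockout libraries, whereas in wild-type C1 and SE Ddx3y was at 31.8 and 33.7 and Uty at 8.67 and 9.01. Xist, the RNA that silences an X chromosome in female cells, was at 14.1, 19.6 and 19.1 in knockout C1, C2 and SE and at 0.527 and 0.104 in wild-type C1 and SE. The knockout label and this difference in sex-linked genes run along the same libraries. In every comparison between the groups the 2 therefore cannot be told apart. Of the 12484 genes tested, 34.3% were called different at an adjusted p under 0.05 (limma, Benjamini-Hochberg), 17.2% higher and 17.1% lower in the knockout.

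Of the 7 niche genes, 6 were called higher in the knockout, where 17.2% of all tested genes were. None of the 7 was called lower by limma, edgeR or DESeq2 or had a lower value at an unadjusted p under 0.05. Cxcl12, Kitl, Ebf1, Angpt1, Esm1 and Hp rose, by between 6.10-fold and 391.8-fold as ratios of group means, and Vcam1 did not pass the test. Knockout and wild-type values did not overlap for any of the 7 genes, and knockout was above wild type in all of them, as in 28% of all tested genes, while 58.8% did not overlap in one or the other direction. The median log2 fold change (knockout minus wild type, on the scale of the value plus 0.5) was 5.08 over the 7 genes and -0.09 over all genes tested. These genes were picked with earlier results of the same data known, so the counts describe them and are no independent sign of a shared response. In bulk RNA, more cells of a type and more RNA per cell cannot be told apart.

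**Figure D1:**
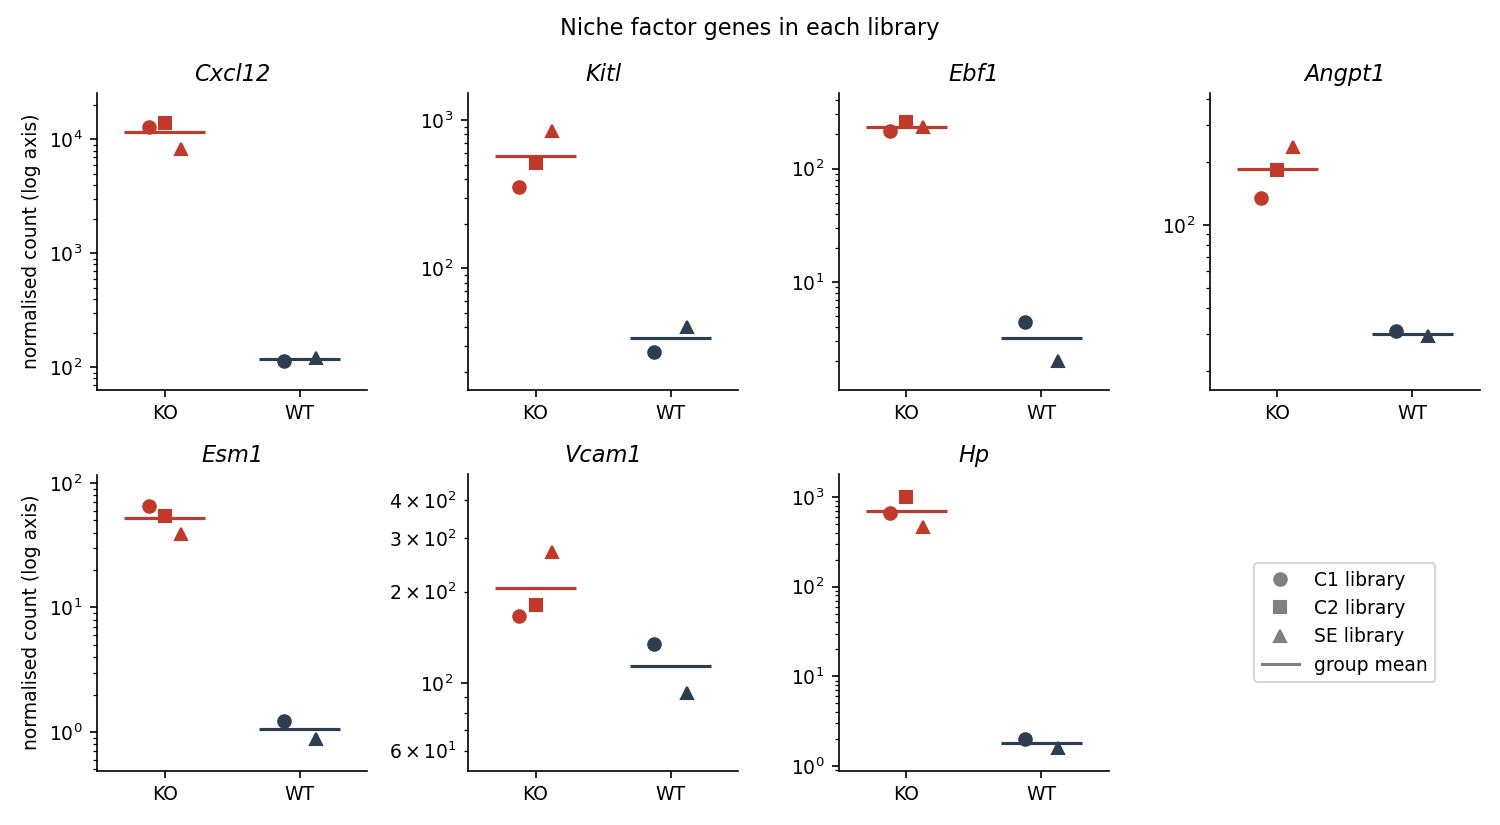
Normalised counts (log axis, a different range in each panel) of the 7 niche factor genes in each knockout (KO, left) and wild-type (WT, right) library, with marker shape for the suffix and a line at each group mean. Every KO library lies above every WT library in all 7 panels, with the narrowest gap for Vcam1.

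The secreted ligands are given first. Cxcl12 (ENSMUSG00000061353, GRCm38 chromosome 6, 117168535 to 117181367, plus strand) had normalised counts of 12788, 14071 and 8179 in knockout C1, C2 and SE, against 115 and 120.0 in wild-type C1 and SE. All 3 knockout libraries were far above both wild-type libraries, and the lowest knockout value was 68.2 times the highest wild-type value. The means were 11680 ± 3099 in the knockout and 117 ± 3.70 in the wild type, a log2 fold change of 6.59 (SE 0.34; limma, adjusted p = 8.37e-05). Cxcl12 took 1.22% of all reads assigned to genes in the knockout and 0.0117% in the wild type. Scaled to exon length, it was the 10th highest tested gene in the knockout and ranked 3841 in the wild type.

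Kitl (ENSMUSG00000019966, chromosome 10, 100015630 to 100100416, plus strand) had 355, 516 and 839.8 in knockout C1, C2 and SE, against 27.2 and 39.9 in wild-type C1 and SE. Knockout SE was the highest and knockout C1 the lowest of the knockout libraries, and the groups were apart by 8.88-fold at their nearest values. The means were 570.1 ± 247 in the knockout and 33.6 ± 8.98 in the wild type, a log2 fold change of 4.0 (SE 0.39; limma, adjusted p = 6.61e-04). Kit ligand exists as a membrane-bound and as a soluble form, and counts per gene do not separate transcripts of the forms.

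Angpt1 (ENSMUSG00000022309, chromosome 15, 42424723 to 42676977, minus strand) had 135, 183 and 236 in knockout C1, C2 and SE, against 31.1 and 29.4 in wild-type C1 and SE. Its knockout libraries followed the same order as for Kitl, with C1 lowest and SE highest. The means were 184 ± 50.5 in the knockout and 30.2 ± 1.21 in the wild type, a log2 fold change of 2.55 (SE 0.28; limma, adjusted p = 0.00108). This 6.10-fold difference was the smallest of the 6 that passed the test.

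Among the other secreted products, Esm1 (ENSMUSG00000042379, chromosome 13, 113209659 to 113218098, plus strand) had 65.0, 54.3 and 38.8 in knockout C1, C2 and SE, against 1.22 and 0.881 in wild-type C1 and SE. Its read counts were 1382, 1434 and 542 in knockout C1, C2 and SE and only 30 and 17 in wild-type C1 and SE, so the groups lay far apart and the wild type near the lower end of what was measured. The log2 fold change was 5.08 (SE 0.33; limma, adjusted p = 1.62e-04), and the ratio of read rates was 51.0 with an exact 95% interval from 38.2 to 69.5. Intervals of this kind cover counting error only. Esm1 lies inside the annotated span of Gzmk on the opposite strand, and since counting by strand is not stated, reads of overlapping genes cannot be told apart. Ebf1, Angpt1 and Vcam1 each overlap an annotated antisense RNA gene, with the same limit.

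Hp (ENSMUSG00000031722, chromosome 8, 109575128 to 109579172, minus strand) had 659.9, 989 and 462 in knockout C1, C2 and SE, against 1.99 and 1.61 in wild-type C1 and SE. The wild-type values came from 49 and 31 reads, and the lowest knockout library, SE, was still 232 times the higher wild-type library. The log2 fold change was 8.20 (SE 0.35; limma, adjusted p = 5.36e-05), the 4th highest of all genes tested, and the ratio of read rates was 416 with an exact 95% interval from 334 to 524. No hepatocyte marker of a list of 7 (Alb and Ttr among them) was among the genes of the deposited table.

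For the transcription factor Ebf1 (ENSMUSG00000057098, chromosome 11, 44617317 to 45008091, plus strand), values were 216, 255 and 231 in knockout C1, C2 and SE, against 4.42 and 2.02 in wild-type C1 and SE. It was the most even of the 7 genes among knockout libraries, with a coefficient of variation of 8.45%, against 24.9% to 43.3% for the others. The wild-type libraries differed by 2.19-fold, from 109 and 39 reads. The log2 fold change was 6.05 (SE 0.33; limma, adjusted p = 8.61e-05). The fold of means was 72.7, or 116 without wild-type C1 and 53.0 without wild-type SE.

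The adhesion receptor gene Vcam1 (ENSMUSG00000027962, chromosome 3, 116109949 to 116129688, minus strand) had 166, 181 and 269 in knockout C1, C2 and SE, against 135 and 92.8 in wild-type C1 and SE. The groups did not overlap, but knockout C1 was only 1.23 times wild-type C1. The means were 205 ± 55.9 in the knockout and 114 ± 29.8 in the wild type, a log2 fold change of 0.84 (SE 0.30) that missed the threshold (limma, adjusted p = 0.0728; unadjusted p = 0.0286). It passed with the suffix as a block (adjusted p = 0.0227) and with DESeq2 on recovered reads (adjusted p = 0.0314), and not in 16 other settings, where the adjusted p lay between 0.0530 and 0.346.

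**Figure D2:**
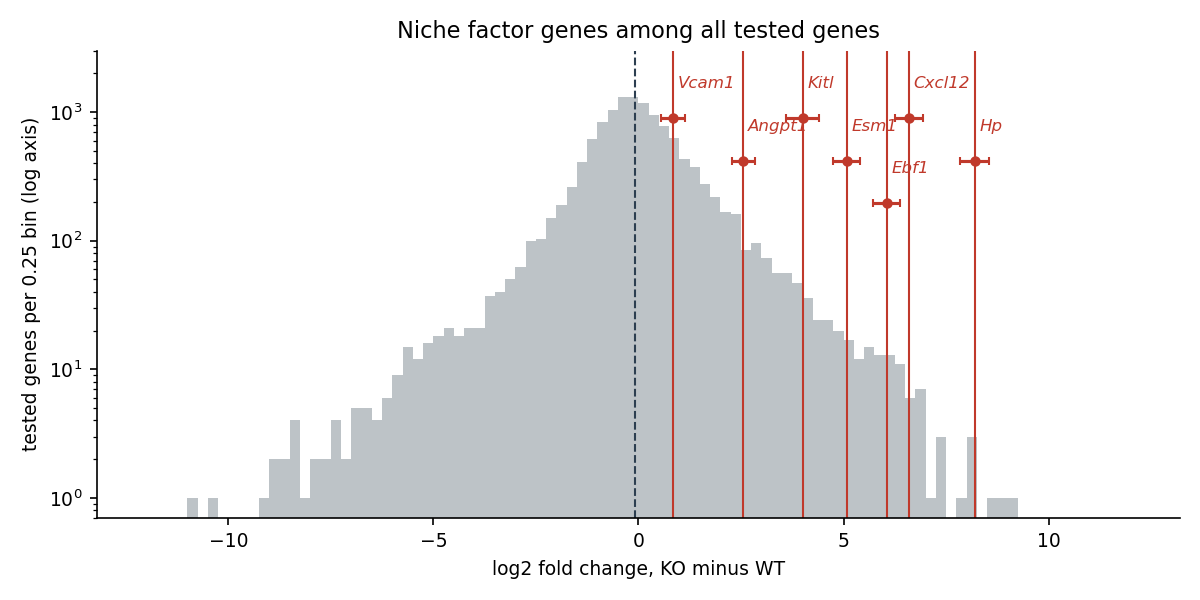
Histogram of log2 fold changes (KO minus WT) of all tested genes in bins of 0.25, with the number of genes on a log axis, a dashed line at their median of -0.09 and red lines at the 7 niche factor genes with standard errors as bars. Hp at 8.20 and Cxcl12 at 6.59 lie in the right tail and Vcam1 at 0.84 lies in the bulk.

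Within all tested genes ordered by log2 fold change from the highest, Hp stood at rank 4, Cxcl12 at 21, Ebf1 at 45, Esm1 at 101, Kitl at 209, Angpt1 at 597 and Vcam1 at 2619. The 7 genes lie on 7 chromosomes. The tested genes nearest to each on its chromosome, up to 25 on either side, had median log2 fold changes between -0.69 around Angpt1 and 0.54 around Cxcl12, against 2.55 to 8.20 for the 6 called genes themselves. Of these neighbours, 16 of 50 were called higher around Cxcl12, against 17.2% of all genes. Against 17.1% of all genes, 17 of 50 were called lower around Angpt1, 16 of 44 around Esm1 and 15 of 50 around Ebf1. Around the same 3 genes, 6, 3 and 3 neighbours were called higher, and around Cxcl12 none was called lower. Neighbours called higher and lower, of 50 each, were 12 and 11 around Kitl, 9 and 11 around Vcam1, and 3 and 9 around Hp.

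Levels of different genes were compared per kilobase of exon, from GENCODE M21 gene models. In the knockout, Cxcl12 was highest at 1429 ± 379 normalised counts per kilobase, followed by Hp at 438 ± 166, Kitl at 96.4 ± 41.8 and Angpt1 at 35.4 ± 9.69. Esm1 at 25.1 ± 6.27, Ebf1 at 24.0 ± 2.03 and Vcam1 at 23.2 ± 6.30 came last. The steps among the first 4 held in 3 of 3 knockout libraries without overlap, while Angpt1 and Esm1, Esm1 and Ebf1, and Ebf1 and Vcam1 overlapped.

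In the wild type the order was another, with Cxcl12 at 14.4 ± 0.453 and Vcam1 at 12.8 ± 3.36 overlapping at the top, then Angpt1 at 5.81 ± 0.233 and Kitl at 5.68 ± 1.52, which overlapped too. Hp at 1.12 ± 0.167, Esm1 at 0.50 ± 0.113 and Ebf1 at 0.330 ± 0.174 were lowest, with Esm1 and Ebf1 overlapping. Cxcl12 was thus first in both groups by mean. Vcam1 was last by mean in the knockout, where it overlapped with Ebf1, whereas in the wild type only Cxcl12 had a higher mean.

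**Figure D3:**
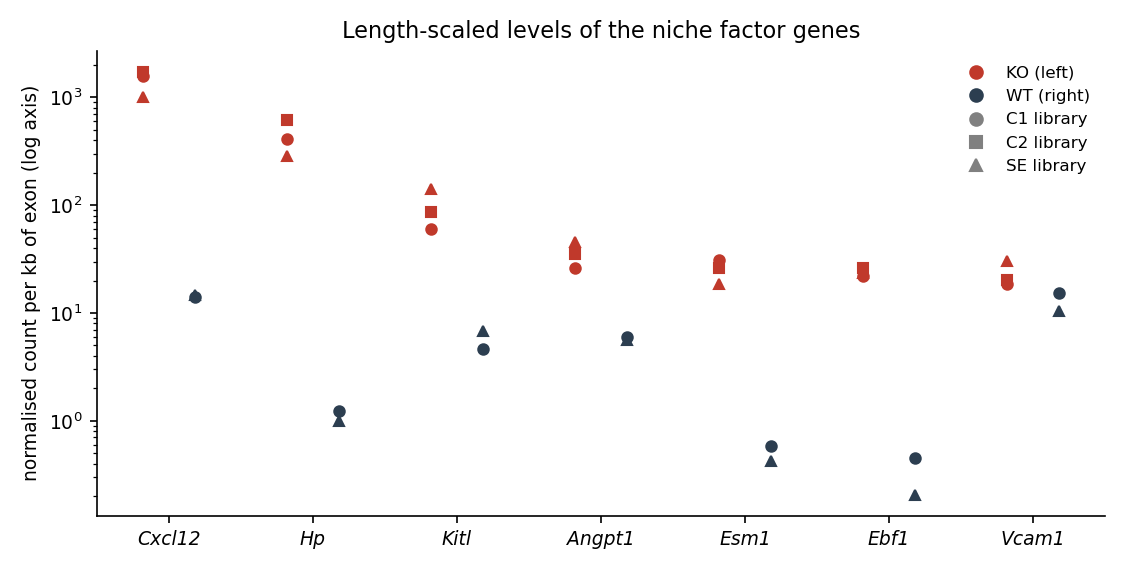
Normalised counts per kilobase of exon (log axis) of the 7 niche factor genes in each KO library (left of each pair, red) and WT library (right, dark), ordered by the KO mean, with marker shape for the suffix. Cxcl12 spans 1000.4 to 1721 in KO and 14.04 to 14.7 in WT, while Vcam1 spans 18.7 to 30.4 in KO and 10.5 to 15.2 in WT.

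Compared within the suffixes, every one of the 7 genes was higher in the knockout in both C and SE libraries. These differences rest on 2 knockout and 1 wild-type C libraries and on 1 SE library of each group, and they have no test. The log2 difference (knockout minus wild type) was 6.86 in C and 6.08 in SE libraries for Cxcl12, 8.35 and 7.78 for Hp, and 5.12 and 4.83 for Esm1. It was 3.95 in C and 4.38 in SE libraries for Kitl, 2.32 and 2.98 for Angpt1, 5.58 and 6.52 for Ebf1, and 0.36 and 1.53 for Vcam1. Cxcl12, Hp and Esm1 thus had the larger difference in C libraries and the other 4 genes had it in SE libraries.

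Within the knockout, SE minus the mean of C1 and C2 on the log2 scale was 0.97 for Kitl, 0.63 for Vcam1 and 0.58 for Angpt1, -0.02 for Ebf1, and -0.61, -0.71 and -0.81 for Esm1, Cxcl12 and Hp. Whether the suffix differences exceed the spread between cultures was not tested, since each group has 1 SE library.

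**Figure D4:**
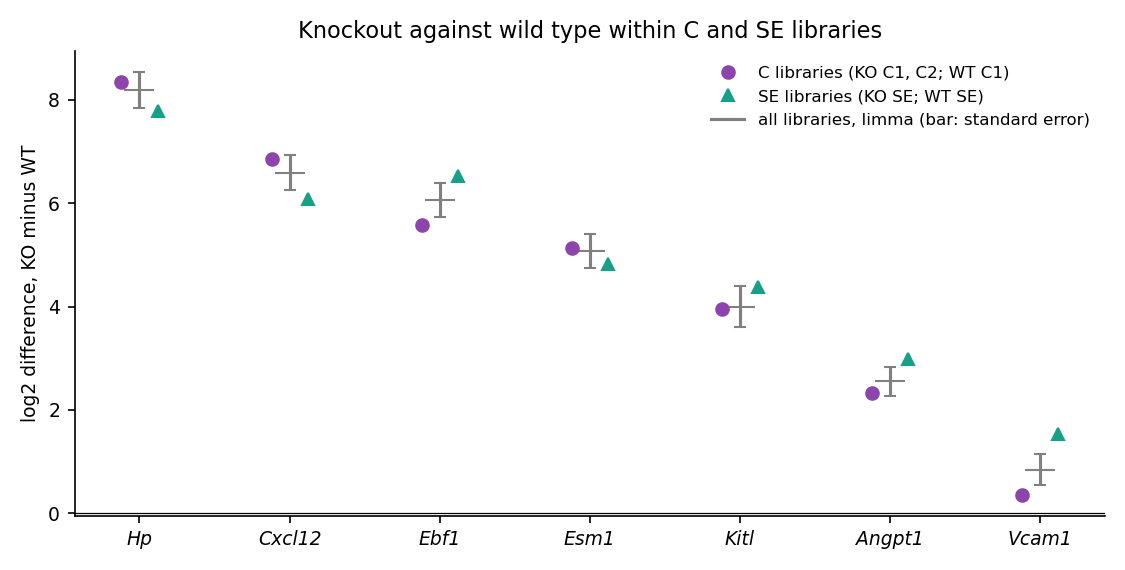
Log2 difference (KO minus WT, value plus 0.5) of the 7 niche factor genes in C libraries (purple circles) and SE libraries (green triangles), beside the estimate from all libraries with its standard error (grey). All points lie above 0, and the C and SE points of Vcam1, 0.36 and 1.53, lie on either side of its estimate of 0.84.

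Other genes around these factors were read from lists of pathway partners. The counts of each list stand beside 17.2% called higher and 17.1% called lower of all tested genes. Among 8 tested genes of the CXCL12 axis, 2 rose and 2 fell in the knockout (median log2 fold change 0.39). Ackr3, a scavenging receptor for CXCL12, had 1.88, 0.643 and 0.358 in knockout C1, C2 and SE, against 38.9 and 18.7 in wild-type C1 and SE, and fell 30.0-fold (adjusted p = 0.00159, limma). That fold was 57.5 without knockout C1 and 19.5 without wild-type C1. Ctsk, a cysteine protease, rose 59.0-fold, and Cxcl14, another chemokine, rose 19.4-fold, or 12.0-fold without knockout C1. The receptor gene Cxcr4 was not among the genes of the deposited table.

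Of 9 tested genes of the KIT ligand axis, 3 fell (median -0.34), where 17.1% of all tested genes were called lower. None was higher by limma, edgeR or DESeq2 or at an unadjusted p under 0.05. Socs6, a suppressor of KIT signalling, fell 2.36-fold and Timp3, an inhibitor of shedding proteases, fell 3.37-fold, but both calls were lost without wild-type C1 (adjusted p = 0.0525 and 0.0555) and without wild-type SE (adjusted p = 0.0659 and 0.0654). Grb2, an adaptor of receptor tyrosine kinases, fell 1.68-fold (adjusted p = 0.0330, limma), a call lost with quantile normalisation (adjusted p = 0.0661) and without wild-type C1, wild-type SE, knockout C1 or knockout C2, at adjusted p = 0.165, 0.171, 0.118 and 0.109. The protease genes Adam17 and Adam10 overlapped between the groups. The receptor gene Kit was not among the genes of the deposited table.

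All 6 tested genes of the angiopoietin axis passed, with 4 higher and 2 lower (median 1.56), but the calls of Angptl4, Angptl6 and Angptl2 were lost in some alternatives, at adjusted p of up to 0.170, 0.124 and 0.0755. Angpt4 had 85.8, 140.0 and 89.6 in knockout C1, C2 and SE, against 3.93 and 4.35 in wild-type C1 and SE, a log2 fold change of 4.47 (SE 0.30; limma, adjusted p = 1.76e-04). Angpt2, which can oppose angiopoietin-1 at its receptor, rose 3.90-fold, or 6.39-fold without wild-type C1 and 2.81-fold without wild-type SE. Svep1, a large matrix protein, rose 416-fold from a wild-type total of 5 reads, or 245-fold without knockout SE. The receptor genes Tek and Tie1 were not among the genes of the deposited table.

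Of 11 tested EBF factors and partners, 6 rose (median 1.26), where 17.2% of all tested genes were called higher. Of these 6 calls, 3 were lost in at least 1 alternative. None of the 11 was lower by limma, edgeR or DESeq2 or at an unadjusted p under 0.05. Ebf2, a relative of Ebf1, had 32.9, 21.5 and 29.2 in knockout C1, C2 and SE, against 1.18 and 1.35 in wild-type C1 and SE, and rose 22.1-fold. Ebf3, of the same family, overlapped between the groups, at 4.66, 4.88 and 9.46 in knockout C1, C2 and SE, against 6.00 and 11.6 in wild-type C1 and SE (adjusted p = 0.477, limma). Cebpa, a regulator of fat cell formation, rose 53.7-fold. Pparg, another such regulator, rose 35.1-fold, or 60.2-fold without wild-type C1 and 24.4-fold without knockout C2.

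For the VCAM1 partners, 1 gene of 10 tested rose and 4 fell (median -0.49), against 17.2% and 17.1% of all tested genes. Itgb7, an integrin chain that can bind VCAM1 together with the alpha-4 chain, had 6.11, 3.93 and 5.16 in knockout C1, C2 and SE, against 238 and 237 in wild-type C1 and SE, a log2 fold change of -5.44 (SE 0.28; limma, adjusted p = 7.72e-05). Itga9, another integrin chain that binds VCAM1, rose 24.3-fold. Irf1, an interferon-induced transcription factor, fell 2.30-fold, a call lost without wild-type C1, wild-type SE or knockout C1, at adjusted p = 0.108, 0.0835 and 0.0505 by limma. Itgb1 overlapped between the groups.

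Of 9 tested genes of the ESM1 and VEGF axis, 2 rose and 2 fell (median 0.08), against 17.2% and 17.1% of all tested genes. With DESeq2, 4 were called lower. Dse, an epimerase that makes dermatan sulphate, rose 5.32-fold, while the VEGF receptor gene Flt1 fell 28.8-fold, to a total of 7 knockout reads. Nrp1, a VEGF co-receptor, rose 2.39-fold, a call lost without wild-type C1, wild-type SE or knockout C2, at adjusted p = 0.0976, 0.0524 and 0.0513 by limma. Vegfa had 42.2, 44.9 and 93.9 in knockout C1, C2 and SE, against 105 and 175 in wild-type C1 and SE, and did not pass (adjusted p = 0.0590, limma).

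Of 15 tested acute phase genes other than Hp, 3 rose and 4 fell (median -0.53), against 17.2% and 17.1% of all tested genes. With edgeR, 2 were called lower. Among those that fell, Il6ra, a chain of the interleukin-6 receptor, was called in 10 of 18 alternatives (adjusted p of up to 0.239). Lrg1, a plasma glycoprotein of inflammation, rose 386-fold from a wild-type total of 4 reads. That fold was 646 without wild-type C1 and 264 without knockout C2. Orm1, an acute phase plasma protein, had no wild-type read and was at least 21.3-fold higher at a floor of 3 reads per library. Serpina3g, a serine protease inhibitor, fell 15.3-fold, or 28.7-fold without knockout C1 and 11.0-fold without knockout SE. Stat3, a mediator of interleukin-6 signals to acute phase genes, overlapped between the groups.

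Other genes of marrow niche cells did not follow one direction. With a median of -0.14, 7 were higher and 8 lower of 25 tested, against 17.2% and 17.1% of all tested genes. Of these 15 calls, 8 were lost in at least 1 alternative. Il33, an alarmin cytokine, fell 92.0-fold, or 169-fold without knockout C2 and 71.7-fold without knockout C1. Nes fell 20.3-fold, whereas Snai2 rose 5.47-fold. The cell label was read against 6 further markers of marrow stromal cells, of which Lepr was not among the genes of the deposited table. Pdgfra, Pdgfrb, Ebf3, Foxc1 and Prrx1 were detected in all 5 libraries and did not pass. Pdgfrb had 239.8, 239.5 and 860.1 in knockout C1, C2 and SE, against 49.0 and 145 in wild-type C1 and SE (adjusted p = 0.0550, limma).

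**Figure D5:**
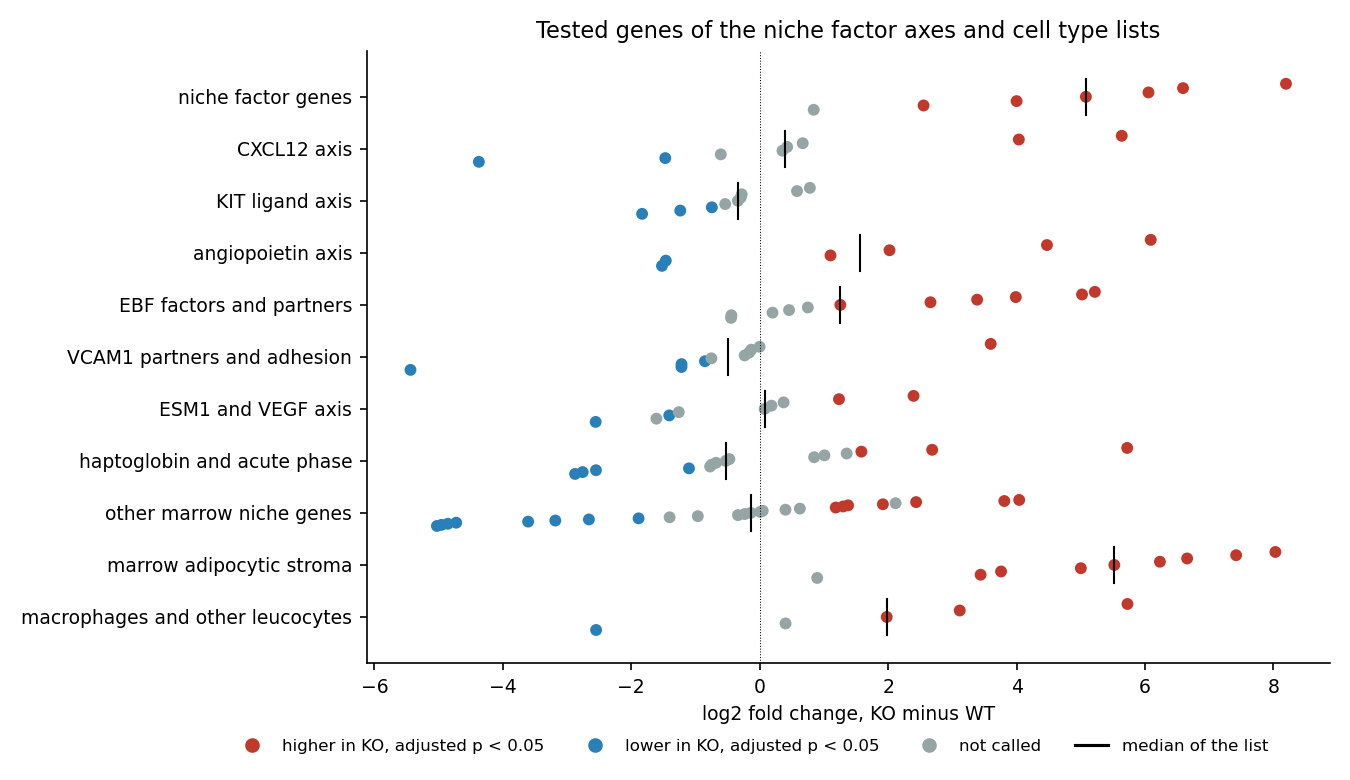
Log2 fold change (KO minus WT) of each tested gene in the niche factor set and in 10 lists of partner genes and cell type markers, coloured by the limma call, with a vertical line at each list's median. The niche factor set has a median of 5.08 and the fat list 5.52, while the list of other marrow niche genes spreads to both sides of its median of -0.14.

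Markers of fat-forming stroma moved in the same direction as the niche genes. Of 9 tested, 8 rose, where 17.2% of all tested genes were called higher. None of the 9 was lower by limma, edgeR or DESeq2 or at an unadjusted p under 0.05. The summed level of the list was 4365 to 10796 in knockout libraries and 130.0 to 166 in wild-type libraries. Lpl alone made up 80.3% to 84.3% of the knockout sums, and Pnpla2, a lipase that did not pass, made up 58.3% to 63.4% of the wild-type sums. Plin1, Fabp4 and Lpl, which act in fat storage and uptake, rose 494-fold, 83.0-fold and 108-fold, and the fold of Plin1 was 319 without wild-type C1 and 1089 without wild-type SE. The part of fat-forming cells in the niche gene differences was not tested.

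Few markers of other cell types were tested. Of 13 endothelial markers 2 were, while Pecam1 and Cdh5 were not among the genes of the deposited table. The 2 tested markers had a summed level of 2.72 to 5.60 in knockout libraries and 3.24 to 3.52 in wild-type libraries. Erg, an endothelial transcription factor, was without a read in any knockout library and at least 9.78-fold lower, and Egfl7, a secreted vascular protein, did not pass (adjusted p = 0.0986, limma). Egfl7 was called without knockout SE (adjusted p = 0.0343) and without both SE libraries (adjusted p = 0.0372).

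Of 16 macrophage and other leucocyte markers 5 were tested, and Ptprc was not among the genes of the deposited table. The 5 tested markers had summed levels of 51.5 to 60.2 in knockout libraries and 66.9 to 94.4 in wild-type libraries. Cd14 alone made up 20.4% to 23.6% of the knockout sums and 94.5% to 95.4% of the wild-type sums. Among the 5 markers 3 rose and 1 fell, against 17.2% and 17.1% of all tested genes. Lyz2, the lysozyme of myeloid cells, had 34.2, 24.4 and 32.2 in knockout C1, C2 and SE, against 4 reads in the wild type, all in C1, and its fold of means was 374, or 187 without wild-type SE. S100a8, a calcium-binding protein of neutrophils, had no wild-type read and was at least 10.8-fold higher. Cd14, a co-receptor for bacterial lipopolysaccharide, fell 6.10-fold. The part of such cells in the niche gene differences was not tested. No marker from the erythroid list of 8 was among the genes of the deposited table.

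Genes whose profile over the 5 libraries came closest to each niche gene were found by the root mean square difference of centred log2 values. The search covered 9885 tested genes with a mean of at least 5, after genes with Gm, Rik or similar provisional symbols were left out. All profiles share the same 5 libraries, and with 34.3% of genes called, near matches are common. No niche gene was among the 3 closest of another. For Hp the closest were Selenop, Gpx3 and Dpep1, at 0.317 to 0.431, and these 3 were the only ones of the 9885 within 0.5. For Cxcl12 they were Kng1, Mmp23 and Cdkn2b, at 0.198 to 0.224, with 25 genes within 0.5.

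The closest to Ebf1 were Dmrt2, Rbpms and Ucp2 (0.130 to 0.203), and to Esm1 they were Fah, Casp1 and Mtap7d3 (0.148 to 0.189). For Kitl they were Card6, Adgrg1 and Aldh6a1 (0.186 to 0.236), and for Angpt1 they were Tifa, Fgd4 and Pcdhga1 (0.110 to 0.135). Vcam1, with Lrrc17, Zfp868 and Ctdspl closest (0.0725 to 0.0923), had 2238 genes within 0.5.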

How the data were processed

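Stranded mRNA libraries were read single-end at 75 bp, per the labels' protocols. The submitters' processing notes name STAR 2.5, edgeR and featureCounts 1.5.2, without role or order, and the genome build is not given in the sources used here. The deposited values are a signal, read counts per gene divided by a TMM-scaled library size by the authors, which was checked against edgeR. Whole reads within 0.02 were recovered for 100% of values. Columns carry the group and no replicate number, so libraries were unnumbered members of a group.

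The test was limma 3.58.1 (trended eBayes) on log2(value + 0.5), over genes with at least 1 in at least 2 libraries, group as the only term, 3 residual degrees of freedom, and Benjamini-Hochberg adjustment over 12484 genes. edgeR 4.0.16 and DESeq2 1.42.0 on recovered reads, other scalings, pseudocounts, filters and variance models, a suffix block and leaving out libraries were alternatives. Folds are ratios of group means. Against no reads, the floor was 3 reads in each library, which is 0.157 as a knockout mean and 0.138 as a wild-type mean. Floors and intervals cover counting error only.

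Ensembl identifiers matched 12607 of 12621 genes to GENCODE M21 (GRCm38) for coordinates and exon lengths. Named partner genes are up to 3 per list, those of smallest p-value. Stromal markers come from the list used to check the cell label. The sex-linked genes and Adam10, Adam17, Angptl2, Angptl4, Angptl6, Il6ra, Itgb1, Pnpla2, Stat3 and Vegfa were picked for naming once their values were known. Those given as absent from the deposited table come from the lists and had no values to see. The genes and lists were chosen with earlier results of these data known. Scripts were tested on simulated data. R 4.3.3 and Python 3.11.15 were used.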

Additional observations from a re-analysis of the deposited data

How the results depend on the processing

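Under 18 alternatives, Cxcl12, Kitl, Ebf1, Angpt1, Esm1 and Hp stayed higher in the knockout and past the threshold. For Vcam1 the direction was kept in all 18, and it passed the threshold in 2, with log2 fold changes of 0.86 with the suffix block (adjusted p = 0.0227) and 0.91 with DESeq2 (adjusted p = 0.0314), so that 7 niche genes were called there. Without both SE libraries its log2 fold change was 0.36 (adjusted p = 0.212). Over all genes tested, 3530 were called higher and 4038 lower with the suffix block, against 2150 and 2129 without it, and the cause was not tested. Leaving out each library in turn gave 1049 to 2332 genes higher and 594 to 2632 lower. Leaving out wild-type C1 gave 1134 higher and 594 lower, leaving out wild-type SE gave 1049 and 627, and leaving out knockout C2 gave 1461 and 1280. With 1 wild-type library left, that library is assumed to vary like the knockout. No paired analysis was possible because column names carry none of the replicate numbers in the sample titles, so the suffix block uses the C and SE suffixes, whose meaning is not given, and is no pairing of samples. Of 63 calls in the partner and marker lists, 26 were lost in at least 1 alternative. A call could be lost only where its gene was tested. Flt1, Serpina3g and Erg were tested in 14 of the 18 alternatives, and Il33 and Nes in 15. These 5 genes did not pass the filter without wild-type C1, without wild-type SE or without both SE libraries, so their calls are untested there. Wild-type depth limits Esm1, Hp and Ebf1, which rest on 47, 80 and 148 wild-type reads.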
